A study of Mus musculus with 16 samples.

Results

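The genes described here encode the nuclear subunits of respiratory complexes III, IV and V, with cytochrome c. They were chosen by symbol alone: every gene of the deposited table whose name began with Uqcr, with Cox and a digit from 4 to 8, or with Atp5, together with *Cyc1* and *Cycs*, leaving out 10 names that carry the pseudogene mark -ps. This gave 46 of 55492 genes, of which 9 belong to complex III (*Cyc1* included), 1 is cytochrome c, 19 belong to complex IV by name and 17 to complex V. A total of 45 passed the filter of a mean of at least 10 normalized counts over all libraries. The other one, *Cox8c*, the testis form of subunit 8, had 0 reads in each of the 16 libraries, which allows up to 3 reads in each. *Cox6c2* is annotated as a processed pseudogene of *Cox6c*, so its reads cannot be cleanly separated from those of its parent gene.

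RNA was sequenced from left ventricles of 16 male C57BL/6 mice aged 8 to 12 weeks, each library from its own mouse. Control mice (PKM2fl/fl) carry loxP sites around the *Pkm* exon that is specific to the M2 form of pyruvate kinase. In the knockout mice (PKM2-/-) that exon was removed in the germline by Cre under the CMV promoter, and the Cre allele was then bred out, so every cell type lacks PKM2 and not only the cardiomyocytes. Each genotype had 2 hearts at baseline (no surgery), 3 hearts 3 days after sham surgery, and 3 hearts 3 days after myocardial infarction (MI), made by permanent ligation of the left anterior descending artery, a step that the sham operation lacked. The sources do not say that infarcted and surviving muscle were separated before extraction.

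Total RNA was depleted of rRNA, and the table gives each gene's reads divided by the size factor of the library (a normalized count). The libraries held 20623769 to 71855101 reads on genes. Loci of rRNA still took 15.8 to 46.0% of them, with both PKM2-/- baseline libraries at 39.6% or above. The count of *Pkm* adds both isoforms and so does not show the loss of the M2 form. In baseline and sham hearts it was 7779 to 9602 normalized counts in PKM2fl/fl and 11710 to 14242 in PKM2-/- hearts, without overlap. After MI it was 9576 to 12076 in PKM2fl/fl and 10120 to 16113 in PKM2-/- hearts, with overlap. All 10 ventricular cardiomyocyte markers were present, as the tissue label implies, and their summed counts were at least 944550 in every baseline and sham heart. After MI this sum was 175400 to 433789 in PKM2fl/fl and 189786 to 255974 in PKM2-/- hearts. The lowest of these sums belonged to PKM2fl/fl MI replicate 3, which stood apart from its group for the genes described here as well, and the main comparisons with that group are also given without it.

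Complex III (the cytochrome bc1 complex) passes electrons from ubiquinol to cytochrome c, and complex IV (cytochrome c oxidase) passes them from cytochrome c to oxygen. Both pump protons out of the mitochondrial matrix, and complex V (ATP synthase) lets protons flow back to make ATP. The catalytic cores of complexes III and IV and the proton channel of complex V include subunits encoded by mitochondrial DNA, and all the other subunits are nuclear genes. Several complex IV subunits exist in a heart and muscle form and a ubiquitous form: *Cox6a2* and *Cox6a1* for subunit 6a, *Cox7a1* and *Cox7a2* for subunit 7a, and *Cox8b* and *Cox8a* for subunit 8. The adult heart relies on this pathway for nearly all of its ATP and is among the tissues with the highest content of these transcripts.

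The tested genes lie on 19 chromosomes, and the 3 heart forms all lie on chromosome 7, at chr7:128205435-128206366 for *Cox6a2*, chr7:30184171-30186030 for *Cox7a1* and chr7:140898942-140900446 for *Cox8b* (GRCm38.p6, RefSeq). Because the heart and ubiquitous forms of one subunit behaved differently after MI, the 250 bases before the annotated starts of a pair of genes of each kind are shown, 5′ to 3′ on the gene strand, from RefSeq on GRCm38.p6. Capitals mark CG dinucleotides. The first pair are the heart forms *Cox7a1* (chr7:30183921-30184170, forward strand) and *Cox8b* (chr7:140900447-140900696, reverse strand). The second pair are the ubiquitous forms *Cox6a1* (chr5:115348959-115349208, reverse strand) and *Cox8a* (chr19:7217617-7217866, reverse strand).
Cox7a1: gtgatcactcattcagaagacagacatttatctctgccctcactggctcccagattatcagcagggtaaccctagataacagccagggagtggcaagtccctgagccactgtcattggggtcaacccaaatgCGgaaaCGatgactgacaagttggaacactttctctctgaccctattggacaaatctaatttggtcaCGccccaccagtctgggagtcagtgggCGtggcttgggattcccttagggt
Cox8b: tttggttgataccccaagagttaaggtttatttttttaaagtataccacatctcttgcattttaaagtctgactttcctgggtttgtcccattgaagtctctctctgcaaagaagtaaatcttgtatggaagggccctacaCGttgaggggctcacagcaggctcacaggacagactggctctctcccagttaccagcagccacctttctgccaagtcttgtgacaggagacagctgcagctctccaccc
Cox6a1: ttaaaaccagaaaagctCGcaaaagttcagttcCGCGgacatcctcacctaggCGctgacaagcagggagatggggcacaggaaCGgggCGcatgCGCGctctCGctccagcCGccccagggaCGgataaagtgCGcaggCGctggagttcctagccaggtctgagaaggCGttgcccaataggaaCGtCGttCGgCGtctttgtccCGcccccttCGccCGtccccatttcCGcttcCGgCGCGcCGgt
Cox8a: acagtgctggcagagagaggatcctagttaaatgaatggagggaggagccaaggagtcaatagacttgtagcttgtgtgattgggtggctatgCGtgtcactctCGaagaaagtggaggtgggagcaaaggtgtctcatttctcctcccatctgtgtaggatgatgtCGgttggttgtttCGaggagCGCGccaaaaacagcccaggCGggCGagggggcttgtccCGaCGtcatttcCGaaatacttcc
The windows of these 2 heart forms held 4 CG dinucleotides for *Cox7a1* and 1 for *Cox8b*, and those of the ubiquitous forms shown held 26 for *Cox6a1* and 11 for *Cox8a*. The ubiquitous *Cox7a2* had 14 and *Cox7b*, which has no heart form among these genes, had 5, close to *Cox7a1*. *Cox6a2* had no window in the table. Over all 32851 windows of this length in the RefSeq table the median was 6, and 44.4% of windows had at most as many as *Cox7a1* and 18.8% at most as many as *Cox8b*. Of the 46 genes, 34 matched a window, some with more than 1 start, and their 37 windows held 1 to 35 with a median of 14.

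A set of 5 short motifs, chosen with these sequences in view, was searched on both strands. GCATGCGC, the core bound by nuclear respiratory factor 1, was found in 13.5% of the 37 windows and in 2.26% of all windows. The genes that held it were *Cox6a1* (160 to 153 bases before the start, overlapping a match on the other strand), *Cycs*, *Atp5k*, *Atp5g2* and *Atp5l*. The share with CCAAT was 54.1% (20 of 37 windows) against 33.8% of all, that with GGGCGG 29.7% against 32.7%, that with AAGGTCA 5.41% against 4.08%, and that with TATAAA 8.11% against 12.4%. The share with GCATGCGC rests on 5 of the 37 windows. That motif itself holds a CG, and the windows were not matched for CG content (median 14 in the 37 windows, 6 in all). A match in these letters is a description of the window and not a bound site.

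Transcripts of all 3 complexes were lower 3 days after MI than after sham surgery, in both genotypes. In PKM2fl/fl hearts 42 of the 45 tested genes fell and 0 rose (limma on log2 of the normalized count plus 1, adjusted p under 0.05 over 20576 genes, where 25.3% of all genes were called lower and 24.8% higher). Of these, 37 fell at least 2-fold, a change reached by 11.1% of all genes tested. The median log2 difference of the 45 genes was -1.48, against 0 for all genes, with a range from -2.23 to -0.04. In 43 of the 45 genes every MI heart lay below every sham heart, a count that was not made over all genes. In bulk tissue, fewer cardiomyocytes and less of each transcript per cardiomyocyte cannot be told apart.

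In PKM2-/- hearts 41 of the 45 genes fell and 0 rose (limma, with 28.1% of all genes called lower and 28.7% higher). A fall of at least 2-fold was called for 37, and for 14.3% of all genes tested. The median log2 difference was -1.34, against 0.01 for all genes. In 41 of the 45 genes every MI heart lay below every sham heart, again a count not made over all genes. Across the 45 genes the log2 differences of the genotypes, which come from separate hearts, had a Pearson r of 0.65 and a Spearman rho of 0.57, given as a description of genes measured in the same 12 libraries. The falls were of much the same size in each complex: the medians were -1.48 in PKM2fl/fl and -1.53 in PKM2-/- hearts for complex III, -1.48 and -1.37 for complex IV, and -1.48 and -1.33 for complex V. All 9 tested genes of complex III and all 17 of complex V fell in both genotypes, whereas complex IV had 15 of 18 falling in PKM2fl/fl and 14 of 18 in PKM2-/- hearts.

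**Figure D1:**
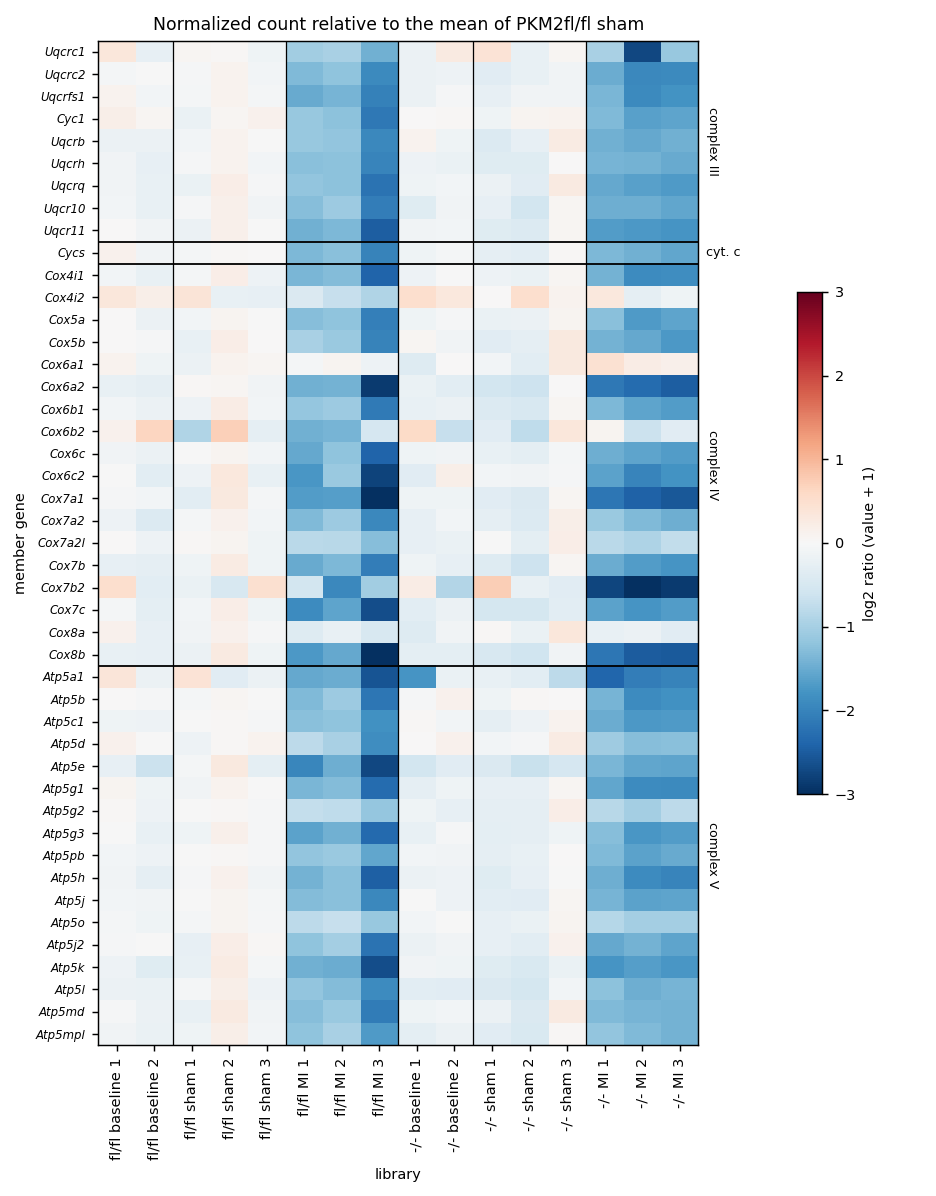
Each row is a tested gene and each column a library, grouped by genotype and condition, and color gives the log2 ratio of the normalized count plus 1 to the mean of the PKM2fl/fl sham hearts. The MI columns are blue in nearly all rows and darkest in PKM2fl/fl MI replicate 3, while *Cox6a1*, *Cox8a* and *Cox4i2* stay pale.

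The size of the fall differed between hearts of the PKM2fl/fl MI group. The median gene stood at 40.99% of its mean in the PKM2fl/fl sham hearts in replicate 1, at 43.25% in replicate 2 and at 24.05% in replicate 3. In the PKM2-/- MI hearts the median gene stood at 42.6, 37.5 and 37.5% of its own genotype's sham mean. Without PKM2fl/fl MI replicate 3 the median log2 difference in PKM2fl/fl hearts was -1.24, the range ran from -1.73 to 0.02, and 39 of the 45 genes were still called lower by limma. Of all genes, that fit called 4453 lower and 4456 higher.

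Markers of several cell types changed after MI as well, not all in one direction. All 10 ventricular cardiomyocyte markers fell in both genotypes, with median log2 differences of -1.75 in PKM2fl/fl and -2.20 in PKM2-/- hearts. Leukocyte markers rose for 7 of the 9 tested in both genotypes, and their summed counts went from 5604 to 11368 in PKM2fl/fl sham hearts to 22484 to 38333 after MI, and from 7824 to 10016 up to 31089 to 35629 in PKM2-/- hearts. Of 6 fibroblast markers, 4 rose and 1 fell in each genotype. Of 4 endothelial markers, 2 rose in PKM2fl/fl hearts, and 1 rose and 1 fell in PKM2-/- hearts (median log2 differences 0.05 and -0.07). Of 4 smooth muscle and pericyte markers, 2 rose and 1 fell in PKM2fl/fl hearts, and 2 rose and 2 fell in PKM2-/- hearts. The summed counts of the 46 genes per unit of the summed cardiomyocyte markers were 0.331 to 0.412 in PKM2fl/fl sham and 0.383 to 0.529 in PKM2fl/fl MI hearts, and 0.289 to 0.383 in PKM2-/- sham and 0.581 to 0.646 in PKM2-/- MI hearts. The part of cell composition in the falls was not tested.

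Within complex III the genes moved closely together. *Uqcrfs1*, the Rieske iron-sulfur protein that takes the first electron from ubiquinol, stood at 10007, 11111 and 10040 normalized counts in PKM2fl/fl sham hearts and at 3630, 3948 and 2542 after MI. The knockout hearts had 8750, 9629 and 9725 after sham surgery and 3992, 2775 and 2976 after MI. The MI and sham hearts were far apart in both genotypes, with a log2 difference of -1.65 (SE 0.16, limma adjusted p = 1.298e-06) in PKM2fl/fl and -1.54 (SE 0.16, limma adjusted p = 1.472e-06) in PKM2-/- hearts.

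*Uqcrh*, the hinge protein that helps cytochrome c1 to dock cytochrome c, stood at 7569, 8397 and 7300 normalized counts in PKM2fl/fl sham and at 3272, 3300 and 1964 in PKM2fl/fl MI hearts. The corresponding values in PKM2-/- hearts were 5998, 6053 and 7830 after sham surgery and 2948, 2880 and 2729 after MI. It fell 2.80-fold in PKM2fl/fl and 2.31-fold in PKM2-/- hearts, with no overlap between MI and sham. *Uqcr11*, a small supernumerary subunit, had the largest fall of the complex in PKM2fl/fl hearts, -1.76 on the log2 scale (SE 0.22). The catalytic cytochrome c1, *Cyc1*, fell 2.82-fold and 2.90-fold in PKM2fl/fl and PKM2-/- hearts, and the core protein *Uqcrc2* fell 2.78-fold and 2.94-fold.

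*Cycs*, the cytochrome c that shuttles electrons between complexes III and IV, had 5232, 5540 and 5512 normalized counts in PKM2fl/fl sham and 2139, 2268 and 1342 in PKM2fl/fl MI hearts. After sham surgery PKM2-/- hearts stood at 4479, 4393 and 5541, and after MI at 2121, 1985 and 1842. Its fall, -1.54 (SE 0.16, limma adjusted p = 2.538e-06) in PKM2fl/fl and -1.27 (SE 0.16, limma adjusted p = 8.421e-06) in PKM2-/- hearts on the log2 scale, lay within the range of the complex III genes.

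*Uqcrc1*, the other core protein of complex III, was measured at counts far below the rest of its complex. Its mean over the 16 libraries was 41.45 normalized counts, from 11 to 97 reads, while that of *Uqcrc2* was 11046. It stood at 54.1, 53.4 and 47.55 in PKM2fl/fl sham and at 24.7, 25.7 and 18.3 in PKM2fl/fl MI hearts, a log2 difference of -1.15 (SE 0.39, limma adjusted p = 0.0211) that limma no longer called without sham replicate 1 (adjusted p = 0.0577), sham replicate 2 (adjusted p = 0.0536) or MI replicate 3 (adjusted p = 0.0735). Its values were 69.1, 44.4 and 53.9 in PKM2-/- sham hearts and 25.9, 6.99 and 23.1 in PKM2-/- MI hearts. The 7 annotated genes around it, from *Ip6k2* to *Ucn2*, had means of 0 to 27.45 normalized counts, whereas *Prkar2a* and *Pfkfb4* on either side of this stretch had 2054 and 260.5. *Atp5a1*, the catalytic-hexamer alpha subunit of complex V, was equally low with a mean of 23.55 normalized counts, from 6 to 86 reads, and its nearest neighbors *Haus1*, *Pstpip2* and *Epg5* had 2.68, 5.44 and 0.89. The reason for these low stretches was not tested, and the levels of *Uqcrc1* and *Atp5a1* are not comparable with those of their partners.

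The catalytic subunits of complex IV are mitochondrially encoded, and its nuclear genes are supernumerary. The 4 that exist as a single form all fell in both genotypes: *Cox5a* and *Cox5b*, which bind the matrix face of the core, and the membrane subunits *Cox6c* and *Cox7c*. *Cox7c* stood at 5428, 6592 and 5330 normalized counts in PKM2fl/fl sham and at 1560, 1934 and 916.4 in PKM2fl/fl MI hearts, a 4.10-fold fall (log2 difference -2.04, SE 0.20, limma adjusted p = 1.289e-06). In PKM2-/- hearts it stood at 4024, 3988 and 4667 after sham surgery and at 1909, 1686 and 1821 after MI, a 2.34-fold fall (log2 difference -1.22, SE 0.20, limma adjusted p = 7.434e-05). Sham and MI hearts were separate in both genotypes, and the difference between the genotypes in the size of the fall did not pass the test (0.81 on the log2 scale, SE 0.28, limma adjusted p = 0.502).

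*Cox6c*, which has no second functional form, stood at 13271, 14147 and 12480 normalized counts in PKM2fl/fl sham and at 4568, 5751 and 2535 in PKM2fl/fl MI hearts. The knockout hearts had 11435, 10798 and 12835 after sham surgery and 4785, 4415 and 4153 after MI. These are falls of 3.28-fold and 2.62-fold. *Cox7b*, the ubiquitous form of subunit 7b, stood at 12497, 16234 and 12469 in PKM2fl/fl sham and at 4823, 5391 and 3267 in PKM2fl/fl MI hearts, and at 10549, 8996 and 14262 in PKM2-/- sham and 4863, 4289 and 4005 in PKM2-/- MI hearts. It fell 3.10-fold and 2.53-fold, with every MI heart below every sham heart. *Cox7a2l*, a factor of respiratory supercomplexes that resembles subunit 7a, fell less, 1.96-fold and 1.74-fold.

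**Figure D2:**
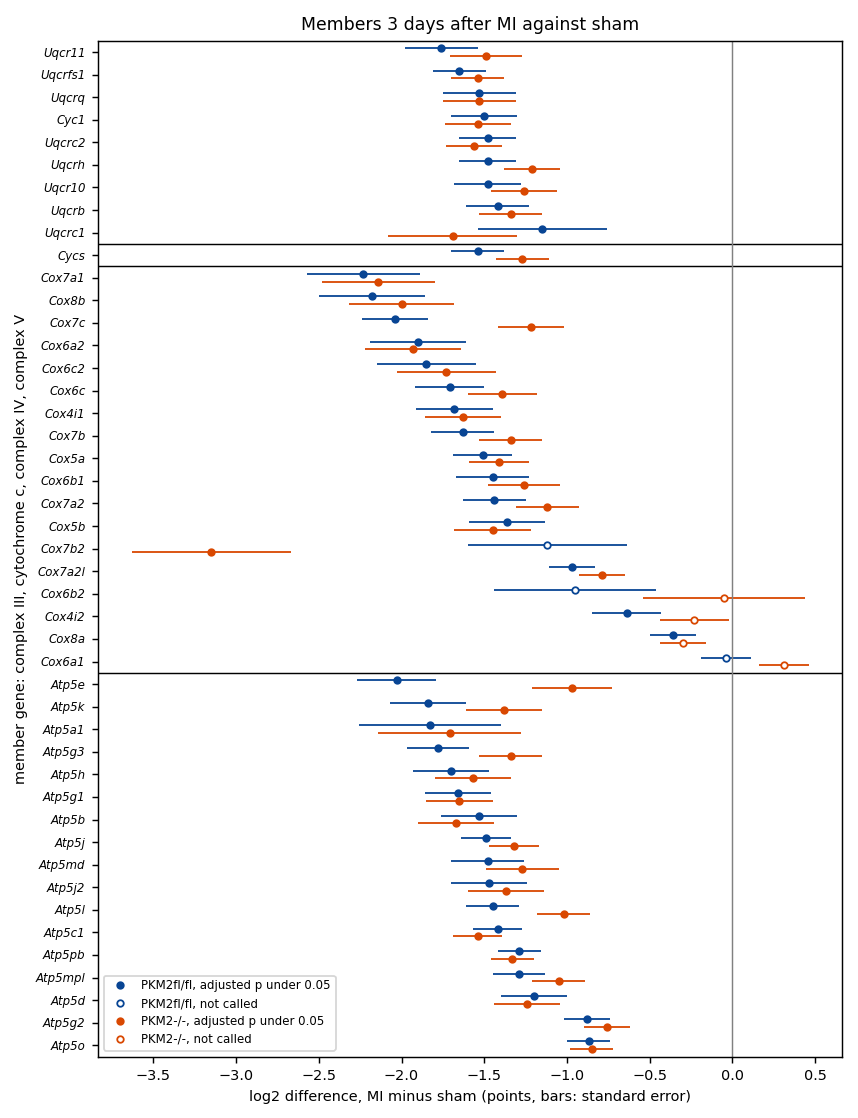
Log2 difference between MI and sham for each tested gene, with points for the estimate, bars for its standard error, blue for PKM2fl/fl, orange for PKM2-/- and open symbols where the adjusted p was not under 0.05. Genes are ordered within complex III, cytochrome c, complex IV and complex V, and *Cox6a1* has the value nearest 0 in PKM2fl/fl (-0.04) and the one value above 0 in PKM2-/- hearts (0.31).

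The 3 heart forms of complex IV subunits were among the genes that fell most, and their ubiquitous partners fell less or did not pass the test. *Cox7a1* stood at 7051, 10807 and 8479 normalized counts in PKM2fl/fl sham and at 2735, 2778 and 814.9 in PKM2fl/fl MI hearts. After sham surgery PKM2-/- hearts stood at 6950, 6531 and 9090, and after MI at 1946, 1635 and 1505. All MI hearts lay below all sham hearts, with log2 differences of -2.23 (SE 0.34, limma adjusted p = 6.538e-05) and -2.14 (SE 0.34, limma adjusted p = 6.611e-05).

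Its ubiquitous partner *Cox7a2* stood at 5063, 5753 and 4939 normalized counts in PKM2fl/fl sham and at 2112, 2472 and 1385 in PKM2fl/fl MI hearts. Its values were 4336, 3952 and 5919 in PKM2-/- sham hearts and 2418, 2113 and 1917 in PKM2-/- MI hearts. It fell 2.71-fold and 2.18-fold, against 4.71-fold and 4.42-fold for *Cox7a1*.

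*Cox8b* stood at 8968, 12149 and 9320 normalized counts in PKM2fl/fl sham and at 3068, 3484 and 1011 in PKM2fl/fl MI hearts. The knockout hearts had 7262, 6700 and 9500 after sham surgery and 2265, 1788 and 1780 after MI. The falls were 4.54-fold and 4.001-fold, again with no overlap between the groups. *Cox8a*, the ubiquitous form, stood at 1431, 1682 and 1505 in PKM2fl/fl sham and at 1172, 1311 and 1105 in PKM2fl/fl MI hearts, a log2 difference of -0.36 (SE 0.14, limma adjusted p = 0.0394). In PKM2-/- hearts it stood at 1566, 1336 and 1957 after sham surgery and at 1329, 1358 and 1207 after MI, a log2 difference of -0.30 (SE 0.14, limma adjusted p = 0.0756) with overlapping groups. It was called lower in PKM2-/- hearts by limma when PKM2-/- sham replicate 2 was left out. The call in PKM2fl/fl hearts was lost when sham replicate 2 (adjusted p = 0.137), sham replicate 3 (adjusted p = 0.0694), MI replicate 1 (adjusted p = 0.0846) or MI replicate 3 (adjusted p = 0.113) was left out of the limma fit, with reads scaled to library totals (adjusted p = 0.178) or to totals without rRNA loci (adjusted p = 0.259), and with no filter on low values (adjusted p = 0.0690).

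*Cox6a2* was the most counted heart form, at 21094, 21595 and 19147 normalized counts in PKM2fl/fl sham and at 7630, 7760 and 2819 in PKM2fl/fl MI hearts. After sham surgery PKM2-/- hearts stood at 14115, 13329 and 20896, and after MI at 4661, 4164 and 3693. It fell 3.74-fold and 3.80-fold. *Cox6a1*, the ubiquitous form, stood at 907.7, 1101 and 1058 in PKM2fl/fl sham and at 986.2, 1076 and 921.0 in PKM2fl/fl MI hearts, and at 963.0, 817.5 and 1248 in PKM2-/- sham and 1394, 1189 and 1135 in PKM2-/- MI hearts. The groups overlapped in both genotypes, with log2 differences of -0.04 (SE 0.15, limma adjusted p = 0.852) and 0.31 (SE 0.15, limma adjusted p = 0.0912), and the second was called higher without PKM2-/- sham replicate 3 (0.48, limma adjusted p = 0.0130).

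Whether *Cox6a1* was called higher in PKM2-/- hearts after MI depended on how the libraries were scaled, which moves all genes of a comparison nearly alike. With reads scaled to library totals in place of the size factors, the median of all genes shifted by 0.516 in PKM2-/- and by -0.177 in PKM2fl/fl hearts, and *Cox6a1* was called higher in PKM2-/- hearts (0.82, limma adjusted p = 0.0219) while its log2 difference in PKM2fl/fl hearts was -0.22 (limma adjusted p = 0.651). Under that scaling 27 of the 45 genes fell in PKM2-/- hearts, where 1891 of all genes were called lower and 7223 higher, and 40 fell in PKM2fl/fl hearts, where 3638 were called lower and 2369 higher. With the size factors these splits were 5780 lower and 5899 higher in PKM2-/- and 5202 lower and 5097 higher in PKM2fl/fl hearts. With the rRNA loci left out of the totals, the shifts were 0.357 and 0.119, 40 genes fell in each genotype (of all genes, 3304 lower and 8489 higher in PKM2-/- and 3643 lower and 5574 higher in PKM2fl/fl hearts), and *Cox6a1* was higher in PKM2-/- hearts (0.66, limma adjusted p = 0.00397) and at 0.09 in PKM2fl/fl hearts (limma adjusted p = 0.720). *Cox8a*, not called in PKM2-/- hearts under any scaling, had log2 differences there of 0.21 and 0.05 with these scalings.

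**Figure D3:**
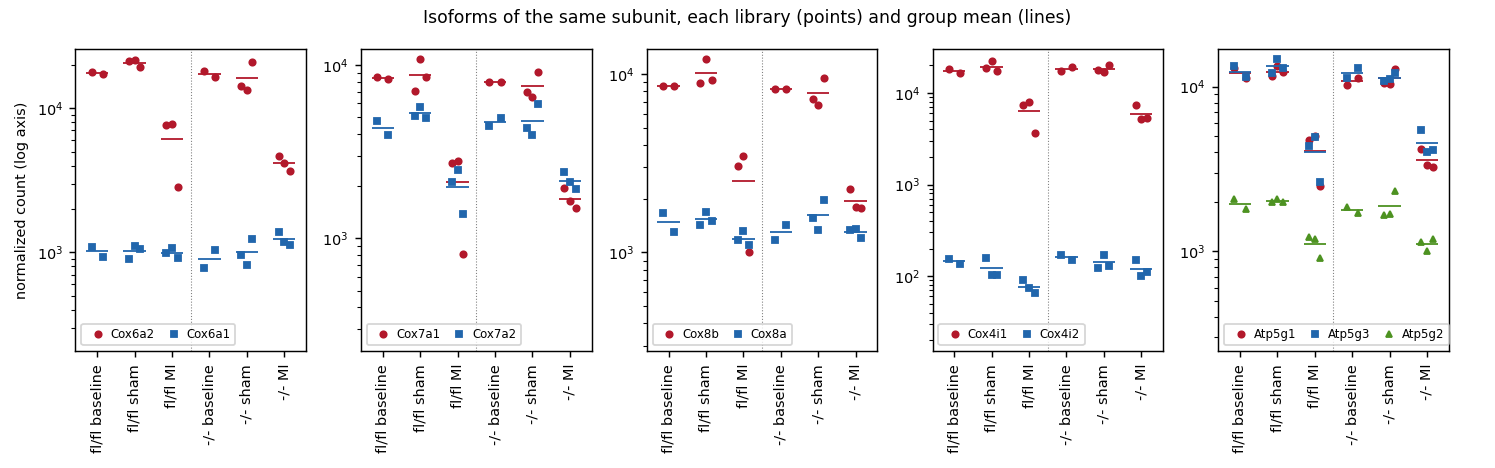
Normalized counts (log axis) of the forms of subunits 6a, 7a, 8 and 4 of complex IV and of subunit c of complex V, with points for libraries and lines for group means, PKM2fl/fl on the left and PKM2-/- on the right of each panel. After MI the heart forms *Cox6a2*, *Cox7a1* and *Cox8b* (red) drop toward their ubiquitous partners (blue), and in PKM2-/- MI hearts the mean of *Cox7a1*, 1695, lies below that of *Cox7a2*, 2149.

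Taken per kb of transcript, the heart forms made up a smaller share of their subunit's transcripts in the tissue after MI. In bulk tissue such a share mixes the cell types present. Whether any share changed within cardiomyocytes was not tested. *Cox6a2* was 95.1, 94.3 and 93.8% of the sum of *Cox6a1* and *Cox6a2* in PKM2fl/fl sham hearts and 86.7, 85.8 and 72.0% after MI. In PKM2-/- hearts the share was 92.5, 93.2 and 93.4% after sham surgery and 73.7, 74.6 and 73.2% after MI. Over both genotypes the share changed by -16.04 percentage points (two-sided exact permutation test within genotype, p = 0.005, the smallest that 400 permutations allow, 0.0062 after adjustment over 5 subunits).

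*Cox7a1* was 72.0, 77.6 and 76.0% of the sum of *Cox7a1* and *Cox7a2* in PKM2fl/fl sham hearts and 70.5, 67.5 and 52.1% after MI. Its values were 74.7, 75.3 and 73.9% in PKM2-/- sham hearts and 59.8, 58.8 and 59.2% in PKM2-/- MI hearts. The change was -13.6 percentage points (exact permutation p = 0.005, adjusted p = 0.0062), and in each genotype all MI hearts lay below all sham hearts. The size of this change depends on the length used: with the exon union the mean share went from 94.1 to 89.9% in PKM2fl/fl and from 93.99 to 88.5% in PKM2-/- hearts, a change of -4.86 percentage points (exact permutation, adjusted p = 0.0062).

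For subunit 8 the shift was the largest of the 5: *Cox8b* was 62.2, 65.5 and 61.9% of the sum of *Cox8a* and *Cox8b* in PKM2fl/fl sham hearts and 40.7, 41.1 and 19.4% after MI. The knockout hearts had 54.9, 56.8 and 56.0% after sham surgery and 30.9, 25.7 and 27.9% after MI. The change was -28.6 percentage points (exact permutation p = 0.005, adjusted p = 0.0062). The level of this share depends on the length used, since the canonical *Cox8b* transcript is longer than the RefSeq gene from its start to its end. In PKM2fl/fl sham hearts it was 63.2% with the transcript length, 70.9% with the exon union, 86.7% with no length and 91.1% with the coding length, and the share was lower after MI with each of them.

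*Cox4i2*, a form of subunit 4 known for hypoxia-responsive expression and for high levels in lung, was a trace beside *Cox4i1*. It stood at 158.0, 103.7 and 102.0 normalized counts in PKM2fl/fl sham and at 89.7, 75.01 and 64.9 in PKM2fl/fl MI hearts, a log2 difference of -0.64 (SE 0.21, limma adjusted p = 0.0218) that was lost without sham replicate 1 (-0.43, adjusted p = 0.126) or MI replicate 3 (-0.53, adjusted p = 0.0833), and when reads were scaled to library totals (-0.81, adjusted p = 0.0735) or to totals without rRNA loci (-0.52, adjusted p = 0.0843). In PKM2-/- hearts it stood at 122.2, 171.1 and 129.5 after sham surgery and at 150.0, 99.7 and 111.1 after MI, with overlapping groups (limma adjusted p = 0.374). *Cox4i1*, which stood at 18535, 22328 and 17449 in PKM2fl/fl sham and at 7466, 7926 and 3685 in PKM2fl/fl MI hearts, fell 3.21-fold there and 3.10-fold in PKM2-/- hearts, from 17602, 16989 and 20354 to 7305, 5225 and 5371. As *Cox4i1* fell more, the share of *Cox4i2* was higher after MI, 0.649 ± 0.202% in PKM2fl/fl sham and 1.33 ± 0.419% in PKM2fl/fl MI hearts, and 0.797 ± 0.202% in PKM2-/- sham and 2.03 ± 0.0874% in PKM2-/- MI hearts (SD, n = 3 each, exact permutation p = 0.005, adjusted p = 0.0062). With the exon union in place of the transcript length these means were 1.46 and 2.96% in PKM2fl/fl and 1.79 and 4.5% in PKM2-/- hearts (exact permutation, adjusted p = 0.0062).

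**Figure D4:**
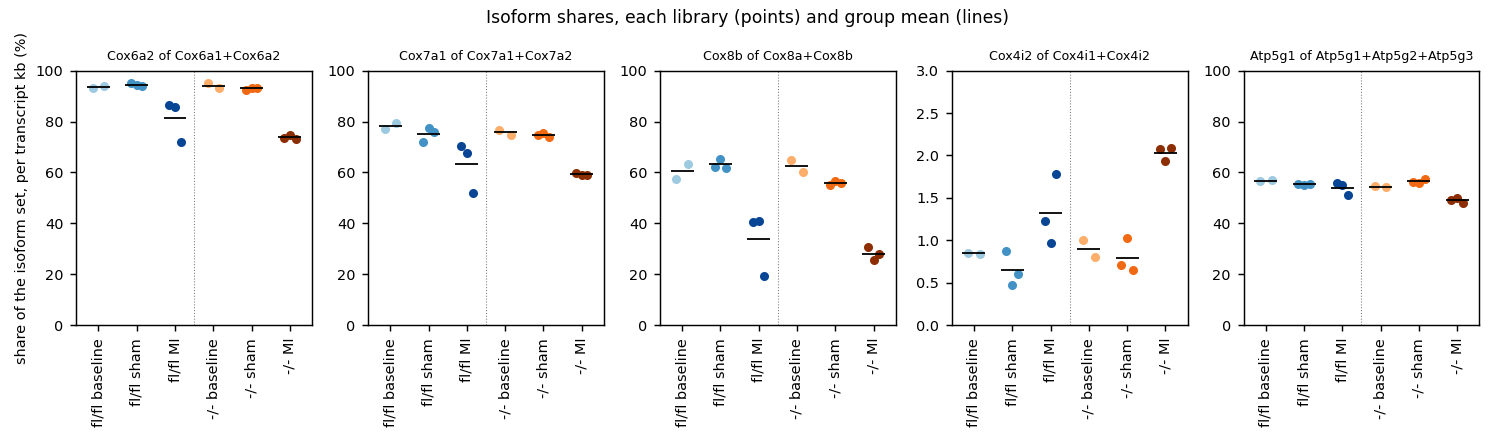
Share of one form in the summed normalized counts per kb of transcript of its subunit (%), with points for libraries and lines for group means, and with its own axis range in the *Cox4i2* panel. The MI hearts lie below the sham hearts for *Cox6a2*, *Cox7a1* and *Cox8b*, above them for *Cox4i2*, and overlap with them in PKM2fl/fl hearts for *Atp5g1*.

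The forms of complex IV subunits named for testis expression were near the limit of detection. *Cox6b2* had a mean of 16.5 and *Cox7b2* of 20.5 normalized counts over the 16 libraries. *Cox7b2* had 19.5 to 39.2 in PKM2fl/fl sham and 6.43 to 18.55 in PKM2fl/fl MI hearts (limma adjusted p = 0.0661), and 21.6 to 46.6 in PKM2-/- sham hearts. In PKM2-/- MI hearts it had 3.24, 1.27 and 2.885, which are 4, 2 and 2 reads, and this fall was called (log2 difference -3.15, limma adjusted p = 5.325e-05). *Cox6b2* was not called in either genotype.

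All 17 genes of complex V fell after MI in both genotypes. The F1 head, which makes ATP, was read mostly from *Atp5b*, the catalytic beta subunit, whose mean was 62971 ± 2478 normalized counts in PKM2fl/fl sham and 22917 ± 8078 in PKM2fl/fl MI hearts (SD, n = 3 each). After sham surgery PKM2-/- hearts stood at 61866 ± 4084, and after MI at 19597 ± 3834. *Atp5c1*, the gamma subunit that turns inside the head, stood at 16029, 16363 and 15788 in PKM2fl/fl sham and at 6777, 6984 and 4591 in PKM2fl/fl MI hearts, and at 13392, 14556 and 17373 in PKM2-/- sham and 5693, 4900 and 4930 in PKM2-/- MI hearts. It fell 2.67-fold (log2 difference -1.42, SE 0.15, limma adjusted p = 2.787e-06) and 2.91-fold (-1.54, SE 0.15, limma adjusted p = 8.648e-07).

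Of the stalk that holds the head in place, *Atp5pb*, the b subunit, stood at 14685, 15294 and 14510 normalized counts in PKM2fl/fl sham and at 6523, 6846 and 5040 in PKM2fl/fl MI hearts. Its values were 12356, 12648 and 15021 in PKM2-/- sham hearts and 5903, 4872 and 5178 in PKM2-/- MI hearts. It fell 2.44-fold and 2.51-fold, with the smallest adjusted p of complex V in both genotypes (limma, 1.522e-06 and 7.663e-07). *Atp5j*, coupling factor 6, stood at 7875, 8364 and 7630 in PKM2fl/fl sham and 3203, 3362 and 2098 in PKM2fl/fl MI hearts, and at 6349, 6303 and 8259 in PKM2-/- sham and 3032, 2612 and 2663 in PKM2-/- MI hearts. It fell 2.81-fold and 2.502-fold.

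*Atp5o*, the oligomycin sensitivity protein that joins stalk and head, fell least of complex V in PKM2fl/fl hearts. It stood at 13873, 15241 and 14148 normalized counts in PKM2fl/fl sham and at 8398, 8883 and 6588 in PKM2fl/fl MI hearts. The knockout hearts had 12234, 12502 and 15261 after sham surgery and 7935, 7158 and 7075 after MI. The falls, 1.83-fold and 1.80-fold, were smaller than those of the other stalk genes, but MI and sham hearts did not overlap.

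Subunit c, which forms the rotating ring, is made from 3 genes that encode the same mature protein with different import signals. *Atp5g1* stood at 11529, 13268 and 12205 normalized counts in PKM2fl/fl sham and at 4738, 4996 and 2493 in PKM2fl/fl MI hearts, and at 10459, 10436 and 12782 in PKM2-/- sham and 4180, 3318 and 3257 in PKM2-/- MI hearts. *Atp5g3* stood at 12144, 14644 and 13031 in PKM2fl/fl sham and at 4368, 4918 and 2641 in PKM2fl/fl MI hearts, and at 10856, 11094 and 12115 in PKM2-/- sham and 5480, 3985 and 4143 in PKM2-/- MI hearts. Both fell more than *Atp5g2*, which stood at 1992, 2076 and 1980 in PKM2fl/fl sham and 1218, 1191 and 905.4 in PKM2fl/fl MI hearts, and at 1659, 1676 and 2325 in PKM2-/- sham and 1128, 996.5 and 1177 in PKM2-/- MI hearts. The folds were 3.16 and 3.14 for *Atp5g1*, 3.44 and 2.53 for *Atp5g3*, and 1.84 and 1.70 for *Atp5g2* in PKM2fl/fl and PKM2-/- hearts.

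The share of *Atp5g1* in the 3 genes per kb of transcript was 55.5 ± 0.309% in PKM2fl/fl sham and 54.1 ± 2.69% in PKM2fl/fl MI hearts, and 56.5 ± 0.879% in PKM2-/- sham and 49.0 ± 1.14% in PKM2-/- MI hearts (SD, n = 3 each). The change over both genotypes was -4.45 percentage points (two-sided exact permutation test, p = 0.035, adjusted p = 0.035), and in PKM2fl/fl hearts the MI and sham values overlapped. This call rested on the transcript length and on 1 library: the adjusted p was 0.050 with no length, 0.095 with the exon union and 0.070 without PKM2fl/fl MI replicate 3.

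At baseline no difference between the genotypes was detected in these genes. Of the 45 tested genes 0 differed between PKM2-/- and PKM2fl/fl hearts at baseline by limma, edgeR or DESeq2. By limma 0 had an unadjusted p under 0.05 (748 of all 20576 genes). Of all genes, limma called 0.00972%, edgeR 1 gene and DESeq2 17 genes. After sham surgery limma called 0.00972% of all genes, edgeR 2 genes and DESeq2 273 genes. Of the 45 genes 0 were called by any of these, and 2 had an unadjusted p under 0.05 by limma, as 2047 of all genes did. The pair were *Cox7c* (-0.45, SE 0.20, limma adjusted p = 0.458), and *Atp5e*, the epsilon subunit of complex V (-0.51, SE 0.24, limma adjusted p = 0.498). These were picked for mention because of their p-values.

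After MI 0 of the 45 genes differed between the genotypes by limma or edgeR. Limma called 0.967% of all genes tested, and edgeR 138 genes. By limma 3 of the 45 had an unadjusted p under 0.05 (3492 of all genes). The 3 were *Cox4i2* (0.64, SE 0.21, limma adjusted p = 0.148), *Atp5e* (0.54, SE 0.24, limma adjusted p = 0.256) and *Cox7b2* (-1.91, SE 0.48, limma adjusted p = 0.0671). DESeq2 called *Cox7b2* lower in PKM2-/- MI hearts (-2.40, adjusted p = 0.0279), on the 2 to 4 reads given above. It called 1033 of all genes, 588 of them lower in PKM2-/- MI hearts. The median log2 difference of the 45 genes between genotypes was -0.02 at baseline, -0.15 after sham surgery and -0.01 after MI, the last of these -0.31 without PKM2fl/fl MI replicate 3. With reads scaled to library totals these medians were -0.61, -0.47 and 0.35, against -0.588, -0.325 and 0.36 for all genes.

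PKM2fl/fl MI replicate 3 decided part of this comparison. It was singled out for the lowest median of these genes in its group, so leaving it out raises the PKM2fl/fl MI level by construction. The direction of the calls below is not independent of that choice. Cardiomyocyte marker sums were 417977 and 433789 in PKM2fl/fl MI replicates 1 and 2, against 189786 to 255974 in PKM2-/- MI hearts. Without replicate 3, limma called 7 of the 45 genes lower in PKM2-/- than in PKM2fl/fl MI hearts and 0 higher. Of all genes tested it called 11%, with 7.64% lower (1573 genes) and 698 genes higher. The median log2 difference of the 45 genes was then -0.31, against -0.008 for all genes. An unadjusted p under 0.05 by limma was found for 22 of the 45, a count not made over all genes in this fit. The 7 called lower were the 3 heart forms, *Cox6a2* (-0.89, limma adjusted p = 0.002675), *Cox8b* (-0.76, adjusted p = 0.00690) and *Cox7a1* (-0.71, adjusted p = 0.0134), together with *Uqcrc2* (-0.52), *Atp5g1* (-0.45), *Atp5c1* (-0.41) and *Cox7b2* (-1.85). With all 3 PKM2fl/fl MI hearts, the values of *Cox6a2* in PKM2-/- MI hearts, 3693 to 4661, lay inside the PKM2fl/fl range of 2819 to 7760.

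**Figure D5:**
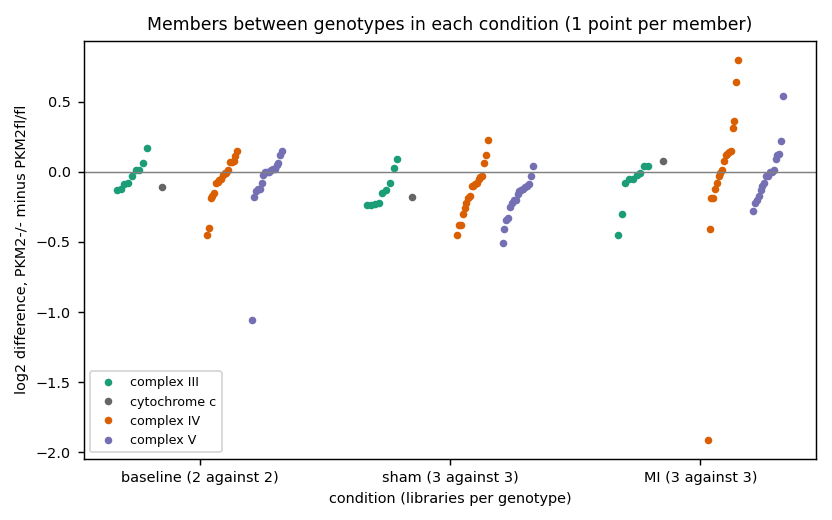
Log2 difference between PKM2-/- and PKM2fl/fl hearts for each tested gene (points, colored by complex) at baseline, after sham surgery and after MI. Most points lie within 0.5 of 0 in each condition, and the lowest point after MI, at -1.91, is *Cox7b2*.

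The change after MI was also compared between genotypes directly. For the difference of the MI effects 0 of the 45 genes were called by limma, edgeR or DESeq2 (3 at an unadjusted p under 0.05 by limma), and 0% of all genes tested were called by limma, with 1703 genes at an unadjusted p under 0.05, 0 called by edgeR and 52 by DESeq2. The log2 difference of the effects was above 0, a smaller fall in PKM2-/- hearts, for 35 of the 45 genes, with a median of 0.13. For all genes it was above 0 for 10088 and below 0 for 10488, with a median of -0.01. The 45 genes were measured in the same 12 libraries, so the 35 are given as a description. With reads scaled to library totals the median of the 45 was 0.81, against 0.675 for all genes. With rRNA loci left out of the totals it was 0.35, against 0.216. With the size factors, the direction in the 45 genes rested on PKM2fl/fl MI replicate 3. It had the lowest median of its group, so leaving it out lowers the difference by construction. Without it the difference was above 0 for 15 and below 0 for 30 of the 45 genes, with a median of -0.11. Limma then called 0 of the 45 and 2.35% of all genes tested (406 lower and 78 higher). An unadjusted p under 0.05 was found for 8 of the 45, a count not made over all genes in this fit. With all libraries the 3 genes were *Atp5e* (1.05, SE 0.33, limma adjusted p = 0.478), *Cox7c* (0.81) and *Cox7b2* (-2.03, SE 0.68, limma adjusted p = 0.502). *Atp5e* stood at 5814, 7485 and 4921 normalized counts in PKM2fl/fl sham, 1569, 2205 and 915.5 in PKM2fl/fl MI, 4530, 3832 and 4306 in PKM2-/- sham and 2347, 2053 and 2041 in PKM2-/- MI hearts, so its genotypes differed in opposite directions after sham surgery and after MI without passing the test at either.

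Surgery alone gave no detectable change in these genes. Between sham and baseline hearts 0 of the 45 genes were called in either genotype by limma, edgeR or DESeq2. Of all genes tested, limma called 0.19% in PKM2fl/fl and 5.14% in PKM2-/- hearts. For all genes in the same order, edgeR called 26 and 739, and DESeq2 356 and 1427. By limma 0 of the 45 had an unadjusted p under 0.05 (1813 and 3886 of all genes). The log2 differences ranged from -0.54 to 0.42 in PKM2fl/fl and from -0.22 to 0.53 in PKM2-/- hearts.

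Other genes of the pathway were counted from lists. Of the 6 mitochondrially encoded subunits of the 3 complexes, 2 fell in PKM2fl/fl and 5 in PKM2-/- hearts after MI, and 0 rose. The ATP synthase channel subunit *mt-Atp6* (-3.65, SE 0.61, limma adjusted p = 0.0001593, and -2.82 in PKM2-/- hearts) and the complex IV core subunit *mt-Co3* (-2.96, SE 0.73, and -2.70) were called in both genotypes. The cytochrome b gene *mt-Cytb* had a log2 difference of -1.14 (SE 0.48, limma adjusted p = 0.0596) in PKM2fl/fl hearts and fell by 1.68 in PKM2-/- hearts. These genes had large standard errors. All 4 subunits of complex II, *Sdha* to *Sdhd*, fell in both genotypes, with medians of -1.48 and -1.58.

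Assembly factors, which build the complexes without staying in them, fell for 27 of 32 tested in PKM2fl/fl and 25 of 32 in PKM2-/- hearts, with smaller medians, -0.73 and -0.66. Examples were *Tmem70*, needed for complex V (-0.94 and -1.03), *Lrpprc*, which stabilizes mitochondrial mRNAs (-1.03 and -1.34), and *Cox17*, which carries copper to complex IV (-1.31 and -0.97). Of 6 complex IV partners outside the name rule, 5 fell and 1 rose in each genotype. *Ndufa4*, a complex IV subunit long assigned to complex I, fell by 1.47 and 1.39, *Chchd2* by 1.56 and 1.02 and *Higd1a* by 1.04 and 0.79 on the log2 scale. The one that rose, *Ndufa4l2*, a hypoxia-induced relative of *Ndufa4* named here after its values were seen, had log2 differences of 0.84 (SE 0.17, limma adjusted p = 0.0007906) and 0.63 (SE 0.17, limma adjusted p = 0.00538).

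Of 14 transcriptional regulators of respiratory genes, 11 fell and 2 rose in PKM2fl/fl hearts, and 11 fell and 1 rose in PKM2-/- hearts. The nuclear receptors *Esrrg* and *Ppara* fell by 1.53 and 1.95 on the log2 scale in PKM2fl/fl hearts and by 2.35 and 2.57 in PKM2-/- hearts, and the mitochondrial transcription factor *Tfam* fell by 0.77 and 0.60. *Esrrg* was the one regulator that differed between the genotypes after MI, with means of 876.2 normalized counts in PKM2-/- and 1801 in PKM2fl/fl hearts (-0.99, limma adjusted p = 0.0319). Its call was not followed through the alternatives, under which this comparison called 6 to 2271 of all genes in place of 199. The difference between the MI effects on *Esrrg* did not pass the test (-0.82, SE 0.27, limma adjusted p = 0.4995).

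Some counts may hold reads of other genes. Annotated exons of 29 of the 46 genes share bases with another gene, and the strand setting of the counting is not given in the sources used here, so reads of such pairs cannot be told apart. The processed pseudogenes left out by the name rule had means of up to 440.2 normalized counts (*Atp5pb-ps*) and 304.6 (*Cox5b-ps*), small beside 10877 and 5893 for their parents.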

How the data were processed

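RNA sequencing covered left ventricles of 16 mice in 6 groups, read from the sample labels, with 2 hearts per genotype at baseline and 3 per genotype after sham surgery and after MI. Read preparation by the authors used PRINSEQ, alignment to mm10 used HISAT2, featureCounts gave reads per gene and DESeq2 gave size factors. The strand and multi-mapping settings and the gene annotation are not given in the sources used here. The deposited values are a normalized signal: reads over the size factor of that library. All values (100%) were whole numbers of reads, within 0.02 of a read, after division by the step of their library, so reads could be recovered. Totals were 20623769 to 71855101 reads per library, and genes with few reads are given with their reads, since counting error limits them. The table also holds 6 columns of the authors' own baseline comparison, which were not used, and 0 columns were without a sample.

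The groups were compared with limma 3.58.1 (limma-trend) in R 4.3.3 on log2 of the normalized value plus 1, with the 6 group means of all 16 libraries in one fit, for 20576 genes with a mean of at least 10. P-values were adjusted by Benjamini-Hochberg over all of them and called under 0.05. Fold changes are on this scale, which understates those of genes with low counts. Shares of isoforms were computed per kb of the GENCODE M39 canonical transcript and compared by exact permutation within genotype, adjusted over 5 subunits. Alternatives were edgeR 4.0.16 and DESeq2 1.42.0 on the recovered reads, other scalings, a pseudocount of 0.1, no filter, only the compared groups, the replicate number as a block and each library left out in turn, together with 2 other gene lengths chosen after seeing the data. The models were tested on simulated data. Gene positions and upstream windows are from RefSeq on GRCm38.p6.

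The genes and lists were chosen with earlier results of these data known. Values in every library are given for the isoform pairs and, per complex, for the 3 genes with the smallest adjusted p and the 1 nearest to no change in MI against sham in PKM2fl/fl hearts, and lists name at most 3 genes by adjusted p. Other genes are named as further examples of the members. Each library is a separate mouse, and p-values refer to variation between mice. For limma the spread of a gene was pooled over all 6 groups and moderated across genes, so it is not the spread of the compared groups alone. These spreads could differ: the SD of *Cox7a1* after MI was 1121 in PKM2fl/fl and 226.5 in PKM2-/- hearts (n = 3 each).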

Additional observations from a re-analysis of the deposited data

How the results depend on the processing

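With 3 hearts per group, 1 library can move a call. When each library was left out in turn, 39 to 42 of 45 genes were lower after MI in PKM2fl/fl hearts (4453 to 5209 of all genes). In PKM2-/- hearts 41 to 42 were lower (5188 to 5547 of all genes). Scaling mattered most: with reads scaled to library totals, 27 genes were lower in PKM2-/- MI hearts in place of 41 (of all genes, 1891 in place of 5780). Between genotypes after MI, DESeq2 called 1 of the 45 genes (1033 of all genes). Leaving out single libraries gave 0 to 7 of the 45 by limma, the 7 without PKM2fl/fl MI replicate 3 (2271 of all genes). The other genotype comparisons, the difference of the MI effects and sham against baseline gave 0 of the 45 genes with each library left out and under each other alternative tried.

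For the isoform shares, leaving out each library moved the change after MI within 0.88 to 1.06 percentage points for *Cox4i2*, -17.50 to -14.16 for *Cox6a2*, -15.42 to -11.23 for *Cox7a1*, -30.20 to -25.26 for *Cox8b* and -5.16 to -3.90 for *Atp5g1*. The *Atp5g1* share was the one that lost its call, at -3.77 with no length (exact permutation, adjusted p = 0.05), -3.73 with the coding length (0.05), -2.03 with the exon union (0.095) and -4.03 without PKM2fl/fl MI replicate 3 (0.07). The cause was not tested.

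The replicate numbers do not pair the samples, which are separate mice: over 18 same-numbered pairs the correlation of deviations ran from -0.2 to 0.13, above 0.1 in 1. With the replicate number as a block, 42 and 41 of the 45 genes were lower after MI in PKM2fl/fl and PKM2-/- hearts (5063 and 5652 of all genes). In the other comparisons 0 of the 45 were called (0 to 865 of all genes). Of the named genes *Cox8a* in PKM2fl/fl hearts lost its call (limma adjusted p = 0.0586). Of the values for single named genes under all alternatives, 628 kept direction and call, 21 lost the call, 4 gained it and 7 changed sign, none of them called before or after. The 7 were in PKM2-/- hearts *Cox4i2* (0.28 with reads scaled to library totals, 0.11 to totals without rRNA loci) and *Cox8a* (0.21 and 0.05), and in PKM2fl/fl hearts *Cox6a1* (0.09 with totals without rRNA loci, and 0.02 both without sham replicate 2 and without MI replicate 3, in a range of -0.12 to 0.02 over the libraries left out).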
